A study of Mus musculus with 6 samples.

Results

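Interferon-stimulated genes (ISGs), the genes that cells switch on when they sense type I or type II interferon, were followed in synovial fibroblasts (SFs) treated with amisulpride. The set was a list of 37 genes named for their place in the type I and type II interferon response and taken by gene name from the 49548 genes measured. All 37 were found, 36 were above 0 in some library, and 29 passed the filter on low values (10 or more in 3 or more of the 6 libraries) that 12614 genes passed in all. The other 8, namely Mx1, Mx2, Oas1a, Oas2, Oasl1, Rsad2, Cmpk2 and Dhx58, are described by their values without a test.

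SFs are the mesenchymal cells of the joint lining. They were primary cells from ankle joints of 8-week-old hTNFtg mice, a strain on a mixed CBA and C57BL/6J background that carries a human TNF transgene and develops arthritis, and cells bearing CD45 were depleted at an early passage. Untreated hTNFtg SFs (3 libraries) were compared with hTNFtg SFs given 500 μM amisulpride for 48 h (3 libraries). Amisulpride is an antipsychotic drug, an antagonist of dopamine and serotonin receptors. All 6 libraries therefore came from cells with the TNF transgene, and no wild-type cells entered the comparison. The labels call the control cells not treated, whereas the methods of the study speak of vehicle, and the name untreated is kept here. The libraries were 3′ end libraries (QuantSeq), in which a transcript gives reads near its end whatever its length. The unit is the normalised count, taken here as a read count divided by 1 factor per library and rounded.

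As background, type I interferons bind the receptor IFNAR, whose kinases JAK1 and TYK2 phosphorylate STAT proteins. STAT2 acts with IRF9 in the complex ISGF3, which binds the interferon-stimulated response element (ISRE) in promoters. Type II interferon binds the receptor IFNGR and acts on promoters through the gamma-activated site (GAS). In arthritic joints, SFs can make and answer type I interferon, and TNF can induce ISGs in SFs through interferon that the cells themselves release.

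The letters of both elements were looked for in the promoters of the members, on both strands, with TTTC followed by any 2 bases and again TTTC for the ISRE core, or its reverse complement, and TTCNNNGAA, which is its own reverse complement, for the GAS. RefSeq promoter windows of build GRCm38.p6, each with 250 bases before and 50 bases from the start of transcription, were at hand for 28 of the 37 members, as 32 windows. An ISRE core was present in 16 of the 28 (57.1%), whereas 3.99% of all 27025 genes with a window and 3.44% of all 32851 windows of the same length held one. A GAS was present in 9 of the 28 (32.1%), against 9.55% of all genes and 8.30% of all windows. Both were present in 6 members and neither in 9. A match describes letters in a window and is not evidence of binding.

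Of these, 5 windows are shown 5′ to 3′ on the strand of the gene, with ISRE and GAS letters in capitals and positions counted from the start of transcription. They were chosen for an ISRE alone (Isg15 and Ifit3), an ISRE beside a GAS (Igtp), a GAS alone (Irf1) and neither (Ifi44, the member that changed most). The Isg15 window (chr4:156200769-156201068, minus strand) held 3 overlapping ISRE cores, at -78, -72 and -66, and the Ifit3 window (chr19:34583279-34583578, plus strand) held ISRE cores at -156 and -122. The Igtp window (chr11:58199306-58199605, plus strand) held a GAS at -45 and an ISRE core at -34, and the Irf1 window (chr11:53769764-53770063, plus strand) held a GAS at -90. The Ifi44 window (chr3:151749861-151750160, minus strand) held neither motif and began with a run of a short repeat. The lack of a match says only that these letters are not in this window.
Isg15: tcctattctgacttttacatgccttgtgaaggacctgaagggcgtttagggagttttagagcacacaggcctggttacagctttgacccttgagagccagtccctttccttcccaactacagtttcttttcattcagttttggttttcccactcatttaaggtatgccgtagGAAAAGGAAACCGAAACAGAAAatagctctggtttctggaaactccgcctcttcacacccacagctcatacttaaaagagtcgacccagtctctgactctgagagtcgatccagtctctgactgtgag
Ifit3: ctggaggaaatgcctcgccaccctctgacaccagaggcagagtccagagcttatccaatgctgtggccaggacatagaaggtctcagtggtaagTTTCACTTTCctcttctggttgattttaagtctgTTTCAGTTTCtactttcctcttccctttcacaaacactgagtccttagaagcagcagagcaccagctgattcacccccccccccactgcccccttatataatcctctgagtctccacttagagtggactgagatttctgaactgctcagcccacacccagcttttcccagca
Igtp: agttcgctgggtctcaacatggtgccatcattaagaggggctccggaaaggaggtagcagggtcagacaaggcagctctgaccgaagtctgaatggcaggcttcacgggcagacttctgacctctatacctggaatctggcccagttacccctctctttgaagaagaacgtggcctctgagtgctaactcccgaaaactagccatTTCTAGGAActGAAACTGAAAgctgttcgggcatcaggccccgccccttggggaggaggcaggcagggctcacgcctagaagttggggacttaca
Irf1: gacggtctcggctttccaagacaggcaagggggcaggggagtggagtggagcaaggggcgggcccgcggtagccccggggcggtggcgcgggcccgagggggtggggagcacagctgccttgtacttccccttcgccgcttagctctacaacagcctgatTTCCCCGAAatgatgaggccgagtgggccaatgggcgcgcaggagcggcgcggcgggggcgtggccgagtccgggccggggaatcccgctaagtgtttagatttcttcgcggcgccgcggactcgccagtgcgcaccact
Ifi44: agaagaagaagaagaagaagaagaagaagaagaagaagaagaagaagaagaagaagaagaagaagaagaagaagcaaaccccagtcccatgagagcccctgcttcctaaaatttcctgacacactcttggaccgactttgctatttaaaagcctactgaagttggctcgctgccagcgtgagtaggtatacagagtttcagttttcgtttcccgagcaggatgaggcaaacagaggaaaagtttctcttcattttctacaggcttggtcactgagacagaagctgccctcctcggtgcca

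The libraries held approximately 2.52 to 4.71 M reads, with that of untreated replicate 1 uncertain, and 1 read was worth 0.835 to 1.788 normalised counts in the other 5 libraries. A count of 0 allows up to 3 reads, or 2.505 to 5.364 normalised counts in those libraries, and such floors cover counting error only. Amisulpride replicate 3 was the shallowest of those 5 libraries and stood apart on the leading principal component of all tested genes, at 73.9 against -38.2 to 10.4 for the others. All 12 fibroblast markers were detected, with Col1a1 at 10814 to 35599 normalised counts. The 12 macrophage markers were also detected and summed to 4092, 2310 and 2829 in untreated and 4107, 2330 and 2255 in treated libraries, most of it from Lyz2, with Ptprc, which encodes CD45, at 5 to 38. Of 7 T and NK cell markers, 5 were at 0 throughout and Klrb1c was at 0 to 1, while Cd3d was present in all 6 libraries, at 30, 26 and 18 in untreated and 16, 33 and 11 in treated SFs. In such bulk samples, a change in the share of a cell type and a change in RNA per cell cannot be told apart.

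The question was whether ISG expression differed between amisulpride-treated and untreated hTNFtg SFs. Most tested members had a somewhat higher mean level in treated SFs, yet few differed beyond the spread between libraries. Of the 29 tested members, 22 had a log2 fold change above 0 (75.9%, against 50.1% of all genes tested) and 7 a value under 0. The median log2 fold change was 0.38, the range was -0.81 (Ifit2) to 1.44 (Ifi44), and the median of all genes was 0.00. With limma, 0 members had an adjusted p under 0.05 (background 0.285% of genes), the lowest being 0.235 for Ifi44, and 1 member, again Ifi44, was higher with an unadjusted p under 0.05 (background 5.11%).

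At the thresholds of the study, a log2 fold change of 1 or more in either direction and an unadjusted p under 0.05, 1 member was higher (Ifi44) and 0 were lower, where 5.7% of all genes were past them (2.69% higher and 3.01% lower). The treated values all lay above the untreated ones for 2 members, Ifi44 and Irf9, where 7.8% of all genes did so, and for 0 members all below, where 8.66% of all genes did. The share of members called was thus near the background or under it. The same replicate number marked libraries that deviated together, so a fit with the replicate number as a block is given where it matters. With the block, Ifi44 had an adjusted p under 0.05 (2.08% of all genes). Past the thresholds in the block fit, Ifi44, Usp18 and Ifit3 were higher, where 3.18% of all genes were. There, 0 members were lower, and 6.61% of all genes were past the thresholds in either direction. These 3 and Irf7 had an unadjusted p under 0.05 in the block fit, where 7.14% of all genes were higher at that level. In the plot of fold changes most points lay to the right of 0, with bars that crossed it for many members.

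**Figure D1:**
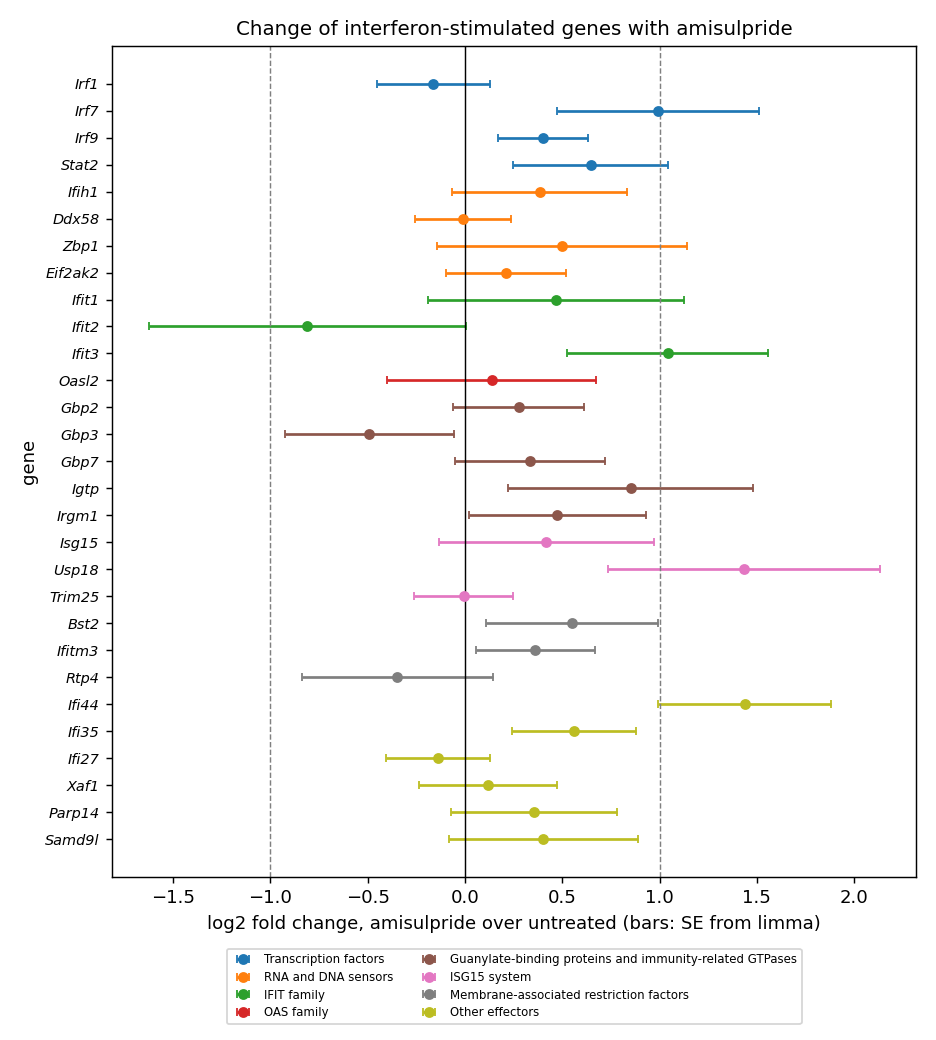
Log2 fold change of each of the 29 tested members, amisulpride over untreated, with the SE from limma as bars and colour for the role of the gene. Ifi44 at 1.44 and Usp18 at 1.43 lay farthest to the right and Ifit2 at -0.81 farthest to the left.

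The precision limits what these fold changes can show. The SE ran from 0.23 to 0.82 with a median of 0.44 over the members, against a median of 0.34 over all genes. The 95% interval lay wholly between -1 and 1 for 7 members, and it reached 1 or more for 19 members and -1 or less for 4. Absence of a call is therefore no sign that these genes stayed the same. Single libraries moved the counts. Without amisulpride replicate 3, 5 of 29 members were higher past the thresholds (Ifi44, Usp18, Ifit3, Ifit1 and Isg15), where 2.93% of all genes were, and the groups did not overlap for 7, where 28.1% of all genes did not. Without untreated replicate 2 the higher members were Ifi44 and Igtp, of 27 (3.21% of all genes), and the groups did not overlap for 7 (25.4% of all genes). Without amisulpride replicate 1 the higher members were Ifi44 and Irf7, of 28 (3.93% of all genes), and the groups did not overlap for 6 (29.7% of all genes). Fewer libraries separate more easily, and the members' counts of groups without overlap were near or under these shares. The median log2 fold change fell to 0.09 without amisulpride replicate 2 and was 0.21 without untreated replicate 3.

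Ifi44 (ENSMUSG00000028037, chromosome 3, 151730922 to 151749960, minus strand, mm10) encodes an interferon-induced protein of the cytoplasm. It had 31, 45 and 42 normalised counts in untreated replicates 1, 2 and 3 and 48, 143 and 177 in amisulpride replicates 1, 2 and 3. Amisulpride replicate 1 lay just above the untreated range and the other treated libraries far above it. The mean was 39.3 ± 7.37 in untreated and 122.7 ± 66.9 in treated SFs (SD, n = 3). The log2 fold change was 1.44 ± 0.44 (SE), and limma gave an unadjusted p of 0.00768 and an adjusted p of 0.235. With the replicate block the adjusted p was 0.0315. Ifi44 was past the thresholds under every alternative run, with log2 fold changes of 1.08 (without amisulpride replicate 3) to 2.01 (without amisulpride replicate 1) when a library was left out.

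Usp18 and Isg15 belong to the ISG15 system. ISG15 is a ubiquitin-like protein that is attached to other proteins, USP18 removes it and also dampens signalling at the type I receptor, and TRIM25 is a ubiquitin ligase that acts in RNA sensing. Usp18 (ENSMUSG00000030107, chromosome 6, 121245906 to 121270917, plus strand) had 3, 11 and 7 normalised counts in untreated and 20, 44 and 7 in treated replicates 1 to 3. The groups overlapped through amisulpride replicate 3, which equalled untreated replicate 3. The log2 fold change was 1.43 ± 0.70 (unadjusted p 0.0644, adjusted p 0.497 in limma), and with the block the unadjusted p was 0.0282. Without amisulpride replicate 3 the log2 fold change was 2.08, with an unadjusted p of 0.00605 in limma. The deposited values of Usp18 lay at or near the level of a few reads in several libraries.

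Isg15 was at 77, 92 and 84 in untreated and at 90, 336 and 47 in treated libraries. Thus 1 treated library lay inside the untreated range, 1 far above and 1 below it, and the log2 fold change of 0.42 ± 0.55 was within the spread. Part of the transcript end of Isg15 (11.2% of its 25-base words) also occurs in AC151275.1, so its reads may be shared. Trim25 was at 189, 211 and 177 in untreated and 172, 167 and 242 in treated libraries, with a log2 fold change of -0.01 ± 0.25.

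The IFIT proteins bind viral RNA and hinder its translation. Ifit3 (ENSMUSG00000074896, chromosome 19, 34583531 to 34588731, plus strand) had 62, 57 and 28 normalised counts in untreated and 90, 220 and 45 in treated libraries. Each treated library lay above the untreated library of its own number, but the groups overlapped. The log2 fold change was 1.04 ± 0.52, with an unadjusted p of 0.0678 and an adjusted p of 0.502 in limma, and the block brought the unadjusted p to 0.00637. It depended on single libraries, with 0.45 (unadjusted p 0.343 in limma) without amisulpride replicate 2 and 1.58 (unadjusted p 0.00301) without amisulpride replicate 3. Of the 25-base words in the last 300 bases of Ifit3, 25.7% also occur in its neighbour Ifit3b, so the split of reads between the pair is uncertain.

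Ifit1 followed the same libraries, at 40, 53 and 23 in untreated and 51, 158 and 16 in treated SFs, so that amisulpride replicate 2 was the highest and amisulpride replicate 3 the lowest of all 6. Its log2 fold change was 0.47 ± 0.66. Ifit2 was low, at 4, 11 and 13 in untreated and 1, 12 and 5 in treated libraries, with a log2 fold change of -0.81 ± 0.82, the lowest among members and within the spread.

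**Figure D2:**
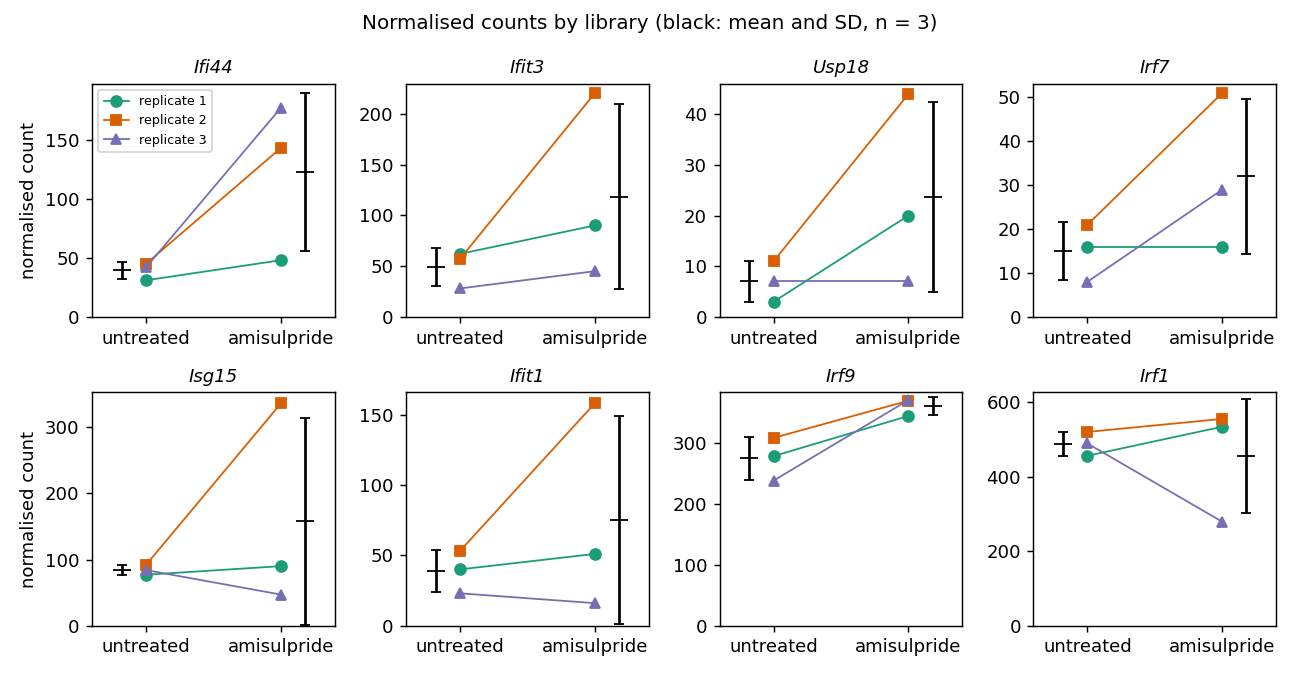
Normalised counts of 8 members in each library, with lines joining libraries of the same replicate number and black marks for the mean and SD of 3 libraries. Amisulpride replicate 2 stood above every other library for Ifit3, Usp18, Irf7, Isg15 and Ifit1, whereas Ifi44 was highest in amisulpride replicate 3, at 177, and Irf1 was lowest there, at 279.

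Among the transcription factors that carry the response, IRF9 and STAT2 are parts of ISGF3, IRF7 amplifies the production of type I interferon, and IRF1 acts in both pathways. Irf7 (ENSMUSG00000025498, chromosome 7, 141262706 to 141266481, minus strand) was at 16, 21 and 8 in untreated and 16, 51 and 29 in treated libraries. Amisulpride replicate 1 equalled untreated replicate 1, and the other treated libraries lay above all untreated ones. The log2 fold change was 0.99 ± 0.52 with an unadjusted p of 0.0815 and an adjusted p of 0.524 in limma, and the unadjusted p was 0.0454 with the block. Without amisulpride replicate 1 the log2 fold change was 1.40, with an unadjusted p of 0.0249 in limma. Irf7 overlaps Phrf1 on the opposite strand, whose mean was 73.3.

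Irf9 (ENSMUSG00000002325, chromosome 14, 55603571 to 55610030, plus strand) was at 278, 308 and 238 in untreated and at 344, 369 and 370 in treated libraries. The groups did not overlap, but the difference was small, a log2 fold change of 0.40 ± 0.23 (unadjusted p 0.111, adjusted p 0.573 in limma). Irf9 overlaps Rnf31 on the same strand, whose mean of 19.7 was far lower. Stat2 (ENSMUSG00000040033, chromosome 10, 128270576 to 128292849, plus strand) was at 26, 41 and 24 in untreated and 30, 72 and 47 in treated libraries. Every treated library of Stat2 exceeded the untreated one of its number, the groups overlapped, and the log2 fold change was 0.65 ± 0.40 (unadjusted p 0.131, adjusted p 0.598 in limma).

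Irf1 (ENSMUSG00000018899, chromosome 11, 53770014 to 53778374, plus strand) was at 456, 520 and 489 in untreated and at 534, 555 and 279 in treated libraries. Amisulpride replicates 1 and 2 were above the untreated range and amisulpride replicate 3 well below it. The mean was 488.3 ± 32 in untreated and 456 ± 154 in treated SFs (SD, n = 3), and the log2 fold change of -0.16 ± 0.29 (adjusted p 0.871 in limma) became 0.16 without amisulpride replicate 3.

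The cytosolic sensors detect viral nucleic acid and feed interferon production. The RNA helicases RIG-I (Ddx58) and MDA5 (Ifih1) and the kinase PKR (Eif2ak2) bind double-stranded RNA, and ZBP1 binds nucleic acids of the Z form. Of the 5 sensor genes, 4 were tested, 0 passed a threshold, and the log2 fold changes ran from -0.01 (Ddx58) to 0.50 (Zbp1). Ddx58 was at 164, 206 and 174 in untreated and 201, 186 and 154 in treated libraries, which lay within or just outside the untreated range. Eif2ak2 was at 68, 82 and 72 in untreated and 115, 92 and 59 in treated libraries, Ifih1 at 18, 24 and 13 and at 15, 24 and 36, and Zbp1 at 15, 33 and 5 and at 23, 31 and 11. In all 3 of these genes the groups overlapped. Dhx58, which encodes the helicase LGP2, was not tested, at 9, 16 and 8 in untreated and 6, 8 and 9 in treated libraries, and it overlaps Dhx58os on the opposite strand, whose mean was 53.5.

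The guanylate-binding proteins (GBPs) and immunity-related GTPases (IRGs) act on the vacuoles of intracellular pathogens and answer mostly to type II interferon. All 5 were tested, 4 had log2 fold changes above 0, and 0 passed a threshold. Igtp (ENSMUSG00000078853, chromosome 11, 58199556 to 58207591, plus strand), an IRG, was at 8, 30 and 5 in untreated and 16, 33 and 16 in treated libraries. Untreated replicate 2 lay with the treated libraries, and the log2 fold change was 0.85 ± 0.63 (unadjusted p 0.203, adjusted p 0.67 in limma). Without untreated replicate 2 it was 1.54, with an unadjusted p of 0.0267 in limma. Igtp overlaps Irgm2, on the same strand and with a mean of 180. Irgm2 ends at 58222782, beyond the end of Igtp, and 3′ end libraries give reads near the transcript end. Whether reads of Irgm2 are mixed in the value of Igtp was not tested.

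Irgm1, a regulator of other IRGs, was at 46, 139 and 62 in untreated and 96, 178 and 63 in treated libraries. Gbp2 was at 78, 197 and 103 in untreated and 131, 161 and 134 in treated libraries, and Gbp7 at 42, 45 and 23 and at 44, 63 and 32. In these 3 genes the groups overlapped, with log2 fold changes of 0.47 ± 0.46, 0.28 ± 0.34 and 0.33 ± 0.38. Gbp3 was at 26, 37 and 17 in untreated and 18, 24 and 13 in treated libraries, and it was the 1 tested member that was lower in treated SFs within every replicate number, with a log2 fold change of -0.49 ± 0.44 and an adjusted p of 0.732 in limma.

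Of the membrane-associated restriction factors, IFITM3 blocks the fusion of enveloped viruses, BST2 (tetherin) holds budding virions at the surface, and RTP4 is an interferon-induced protein that was first known for aiding receptor transport. Ifitm3 (ENSMUSG00000025492, chromosome 7, 141009586 to 141010770, minus strand) had the highest mean of all members, with 1807, 3107 and 3141 normalised counts in untreated and 2583, 3430 and 4221 in treated libraries. Each treated library was above the untreated one of its number, the groups overlapped, and the log2 fold change was 0.36 ± 0.31 (unadjusted p 0.261, adjusted p 0.717 in limma). Part of its transcript end (9.06% of the words) also occurs in AC121299.1. Bst2 showed the same order within numbers, at 122, 232 and 85 in untreated and 156, 377 and 129 in treated libraries, with a log2 fold change of 0.55 ± 0.44. Rtp4 was at 67, 159 and 92 in untreated and 94, 147 and 34 in treated libraries, with amisulpride replicate 3 the lowest of all 6.

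The remaining effectors include PARP14, a mono-ADP-ribosyltransferase, SAMD9L, a restrictor of poxviruses, and XAF1, a partner of the apoptosis inhibitor XIAP. Ifi35 (ENSMUSG00000010358, chromosome 11, 101448407 to 101458698, plus strand), which encodes an interferon-induced leucine zipper protein, was at 83, 55 and 52 in untreated and 82, 126 and 75 in treated libraries. The groups overlapped through untreated replicate 1, with a log2 fold change of 0.56 ± 0.32 (unadjusted p 0.104, adjusted p 0.562 in limma). Ifi27 (ENSMUSG00000064215, chromosome 12, 103434211 to 103440239, plus strand), which encodes a small membrane protein, was at 731, 775 and 604 in untreated and 606, 862 and 490 in treated libraries. Its log2 fold change was -0.14 ± 0.27 (adjusted p 0.88 in limma), and 0.05 without amisulpride replicate 3.

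Xaf1 was at 132, 110 and 118 in untreated and at 125, 222 and 79 in treated libraries, Parp14 at 27, 21 and 22 and at 18, 51 and 29, and Samd9l at 23, 91 and 48 and at 58, 100 and 41. In these 3 genes amisulpride replicate 2 was the highest of the 6 libraries, the groups overlapped, and the log2 fold changes were 0.12, 0.35 and 0.40.

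The OAS enzymes activate RNase L on double-stranded RNA, and OASL proteins are related sensors that regulate the response. Of 4 members, only Oasl2 passed the filter, at 17, 41 and 15 in untreated and 23, 47 and 13 in treated libraries, with a log2 fold change of 0.14 ± 0.54. Oas1a was at 6, 2 and 2 in untreated and 2, 4 and 0 in treated libraries, Oas2 at 1, 5 and 0 and at 1, 8 and 2, and Oasl1 at 0, 1 and 0 and at 1, 1 and 2. Of the words of the Oas1a transcript end, 55.4% also occur in Oas1g. Mx proteins are dynamin-like GTPases that block viral replication. Mx1 was at 0 in all 6 libraries, and Mx2, annotated as a polymorphic pseudogene, was at 0, 0 and 0 in untreated and 4, 7 and 0 in treated libraries.

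Rsad2, which encodes the radical SAM enzyme viperin, was at 4, 3 and 4 in untreated and 0, 3 and 0 in treated libraries, and its neighbour Cmpk2, a mitochondrial nucleotide kinase, at 0, 0 and 3 and at 3, 3 and 0. The 7 genes of the OAS, Mx, Rsad2 and Cmpk2 group left out by the filter thus had values of 0 to 8, at or near the level of a few reads. Without the filter, Mx2 (log2 fold change 1.77, unadjusted p 0.0263 in limma) and Rsad2 (-1.55, unadjusted p 0.0432) were past the thresholds in opposite directions, on values near the floor.

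**Figure D3:**
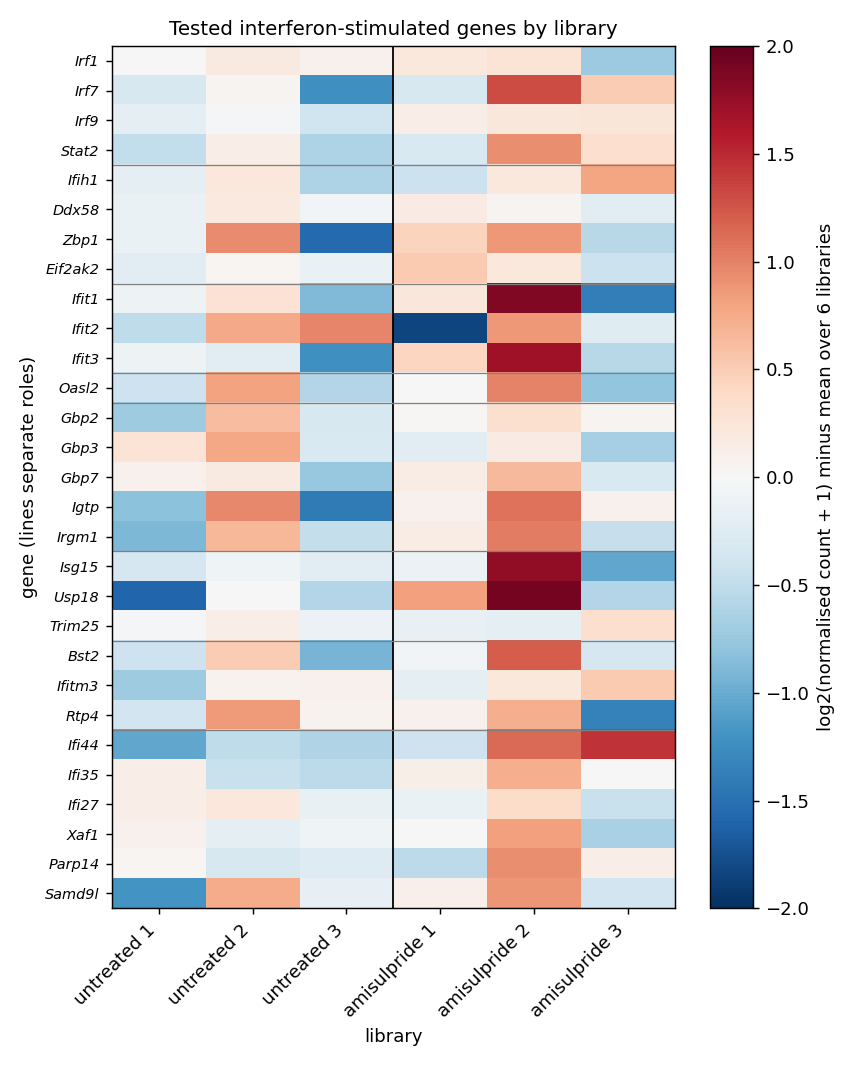
Log2(normalised count + 1) of the 29 tested members in each library minus the mean over 6 libraries (red above, blue below), with lines that separate roles. The column of amisulpride replicate 2 is red for 28 of 29 members, and those of untreated replicates 1 and 3 are mostly blue.

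The members varied together between libraries of the same group. Amisulpride replicate 2 was above the member's own mean over 6 libraries for 28 of 29 members, with a median deviation of 0.86 on the log2 scale. Untreated replicate 2 was above it for 22 members (median deviation 0.18), amisulpride replicate 1 for 16 (0.03), amisulpride replicate 3 for 10 (-0.33), untreated replicate 1 for 6 (-0.22) and untreated replicate 3 for 4 (-0.40). In the heatmap of deviations this shows as a red column for amisulpride replicate 2. The median deviation of all tested genes was between -0.01 and 0.02 in each library. The 36 listed members other than Ifitm3, tested or not, summed to 2869, 3674 and 2660 in untreated and 3234, 4885 and 2685 in treated libraries, so that untreated replicate 2 exceeded amisulpride replicates 1 and 3.

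Replicate 2 was the highest library of its group in both groups for 17 members, whereas it was so for 11.3% of all genes tested. It was the highest untreated library for 23 members (30.7% of all genes) and the highest treated library for 22 (28.8% of all genes). Amisulpride replicate 2 was the highest of all 6 libraries for 17 members (15.8% of all genes), and amisulpride replicate 3 was the lowest treated library for 18. The summed macrophage markers were 2310 in untreated replicate 2 and 2330 in amisulpride replicate 2, and highest in replicate 1 of both groups. Of the 5 plasmacytoid dendritic cell markers, Siglech and Ly6d were at 0 to 2 and Ccr9 at 0. Tcf4 was at 440, 362 and 562 in untreated and 476, 442 and 574 in treated libraries, lowest in replicate 2 of both groups. Spib was at 0, 4 and 0 in untreated and 1, 12 and 0 in treated libraries. It was thus highest in replicate 2 of both groups, at values of a few reads. Only Tcf4 of these 5 markers passed the filter, so the opposite order of Tcf4 and Spib says little about such cells. The part of the macrophage and plasmacytoid dendritic cell markers in the result was not tested.

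Changes were then taken within each replicate number, as the log2 value of the treated library minus that of the untreated library. The median over the 29 members was 0.31 in number 1, 0.19 in number 2 and 0.38 in number 3, where all genes had medians of 0.00, -0.01 and 0.00. The difference was above 0 for 20 members in number 1, 22 in number 2 and 16 in number 3, and under 0 for 8, 6 and 12, respectively. In each number it was 0 for 1 member. Number 3 was thus the most divided, with amisulpride replicate 3 both far above and far below its untreated counterpart.

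A difference of at least 1 was seen for 3 members in number 1 (10.3%, against 6.75% of all genes), 9 in number 2 (31.0%, against 6.73%) and 5 in number 3 (17.2%, against 12.8%). In number 2 the 9 were Ifit3, Usp18, Isg15, Ifi44, Ifit1, Irf7, Parp14, Ifi35 and Xaf1, whose differences ran from 1.01 (Xaf1) to 1.93 (Ifit3), and 0 members had a difference of -1 or less. In number 1 the 3 were Usp18 (2.39), Samd9l (1.30) and Irgm1 (1.05), and Ifit2 (-1.32) was the 1 member at -1 or less. In number 3 the 5 were Ifi44 (2.05), Irf7 (1.74), Igtp (1.50), Ifih1 (1.40) and Zbp1 (1), and Rtp4 (-1.41) and Ifit2 (-1.22) were at -1 or less. No member had a difference of at least 1 in all 3 numbers.

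**Figure D4:**
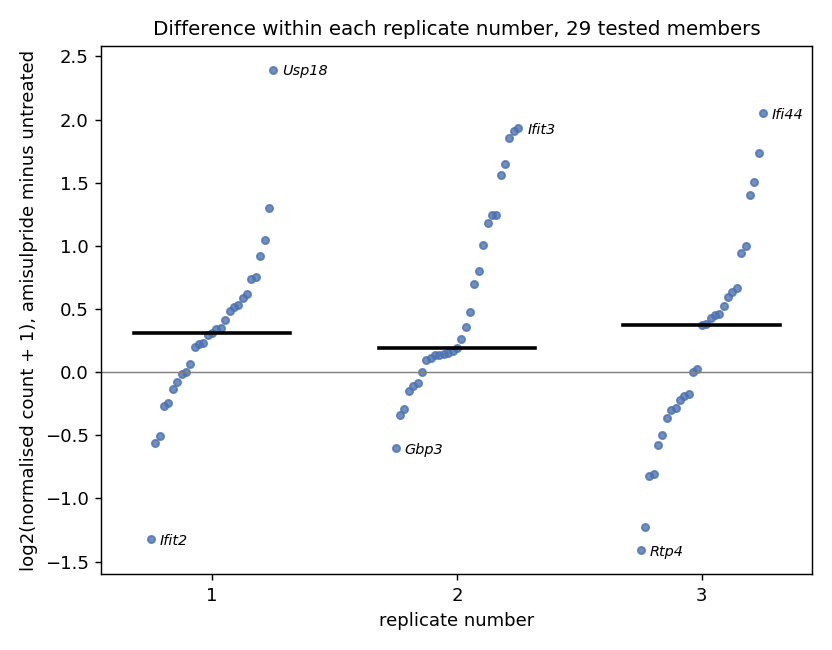
Difference in log2(normalised count + 1) between the treated and the untreated library of the same replicate number, 1 point for each of the 29 tested members, with bars at the medians of 0.31, 0.19 and 0.38. The highest and lowest member of each number are named, Usp18 at 2.39 and Ifit2 at -1.32 in number 1, Ifit3 at 1.93 and Gbp3 at -0.60 in number 2, and Ifi44 at 2.05 and Rtp4 at -1.41 in number 3.

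Members that were higher in the treated library in every number were 9 of 29, namely Ifi44, Ifit3, Irf9, Stat2, Bst2, Ifitm3, Igtp, Irgm1 and Gbp7, where 16.9% of all genes tested were so. Gbp3 alone was lower in every number, where 17.8% of all genes were. Some members moved unevenly between numbers, with differences of 0.22, 1.86 and -0.82 for Isg15 and 0.34, 1.56 and -0.50 for Ifit1 in numbers 1, 2 and 3. The members were also read by their promoter windows. Of 14 tested members with an ISRE, 12 had a log2 fold change above 0 (median 0.40) and 8 were highest in amisulpride replicate 2. Of 10 tested members with a window and no ISRE, 7 were above 0 (median 0.27) and 6 were highest in amisulpride replicate 2. These are descriptions, and the difference between the 2 sets was not tested.

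Other genes of the interferon pathway were read from a list of 111 genes, of which 110 were found and 75 tested. The 10 interferon genes listed (Ifnb1, Ifna1, Ifna2, Ifna4, Ifna5, Ifnk, Ifne, Ifng, Ifnl2 and Ifnl3) were at 0 in all 6 libraries, which allows up to 3 reads in each. Of the 75 tested, 45 had a log2 fold change above 0, where 50.1% of all genes did, with a median of 0.13. In limma, 0 had an adjusted p under 0.05 (0.285% of all genes). Past the thresholds, 4 were higher and 2 lower, where 2.69% and 3.01% of all genes were. With the block, Psmb9 had an adjusted p under 0.05 (2.08% of all genes). Leaving out untreated replicate 3 brought the count past the thresholds to 3 (4.85% of all genes). Leaving out amisulpride replicate 3 brought it to 9 (6.25% of all genes).

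Both chains of the type I receptor were detected. Ifnar1 was at 31, 33 and 35 in untreated and 39, 40 and 32 in treated libraries, with a log2 fold change of 0.16 ± 0.32. Ifnar2 was at 287, 364 and 229 in untreated and 391, 375 and 365 in treated libraries, all treated values being above the untreated ones, with a log2 fold change of 0.39 ± 0.25 and an adjusted p of 0.62 in limma. The type II receptor chain Ifngr1 had a log2 fold change of -0.08 ± 0.27, and Ifngr2 was at 303, 342 and 294 in untreated and 309, 236 and 141 in treated libraries (-0.52 ± 0.30, adjusted p 0.573). Il10rb, the shared chain of the type III receptor, had a log2 fold change of -0.03 ± 0.31, and its specific chain Ifnlr1 was at 2, 4 and 0 in untreated and 1, 0 and 0 in treated libraries.

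Among further targets of type II interferon, 14 of 23 were tested and 12 had a log2 fold change above 0 (median 0.29), with Psmb9 and Gbp6 higher and 0 lower past the thresholds. Psmb9, a subunit of the immunoproteasome that makes peptides for antigen presentation, was at 94, 38 and 35 in untreated and 117, 213 and 122 in treated libraries. The groups did not overlap, and the log2 fold change was 1.51 ± 0.40 (unadjusted p 0.00301, adjusted p 0.166 in limma, and adjusted p 0.0349 with the block). Tap1, the peptide transporter gene on the other strand, was at 151, 119 and 94 in untreated and 251, 264 and 152 in treated libraries. Its log2 fold change was 0.85 ± 0.30 (adjusted p 0.3 in limma). Psmb9 and Tap1 overlap only where both start, whereas 3′ end libraries give reads near the transcript end. Whether the pair shares reads was not tested. Gbp6 was at 28, 37 and 7 in untreated and 44, 50 and 48 in treated libraries, with a log2 fold change of 1.22 ± 0.53 (unadjusted p 0.0393, adjusted p 0.426). It was no longer past the thresholds without untreated replicate 3 (0.54) or without any 1 of the 3 treated replicates (unadjusted p 0.0564 to 0.0841 in limma).

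Among further targets of type I interferon, 32 of 48 were tested and 23 had a log2 fold change above 0 (median 0.20), with Phf11d and Ifit3b higher and 0 lower past the thresholds. Phf11d was at 1, 12 and 3 in untreated and 25, 36 and 13 in treated libraries, with no overlap between the groups. Its log2 fold change was 2.34 ± 0.73 (unadjusted p 0.00824, adjusted p 0.242 in limma). Only 1 untreated library but all 3 treated libraries reached 10, and untreated replicates 1 and 3 were at the level of a few reads. With a pseudocount of 5 the log2 fold change was 1.59. Ifit3b was at 67, 53 and 28 in untreated and 85, 215 and 61 in treated libraries, nearly the same values as Ifit3, with which it shares sequence. Its log2 fold change was 1.15 ± 0.47 (unadjusted p 0.0319, adjusted p 0.396), and it was no longer past the thresholds without untreated replicate 2 (1.24, unadjusted p 0.051), without untreated replicate 3 (0.79) or without amisulpride replicate 2 (0.62).

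The genes lower past the thresholds were Irf5 and Ptpn6, both known mainly from leukocytes. Irf5, a transcription factor of inflammatory and interferon genes, was at 41, 40 and 27 in untreated and 40, 8 and 2 in treated libraries (log2 fold change -1.81 ± 0.77, unadjusted p 0.0366, adjusted p 0.416 in limma). Its unadjusted p was 0.0546 to 0.125 without untreated replicate 1, 2 or 3 or without amisulpride replicate 2 or 3. Without amisulpride replicate 1 the unadjusted p of Irf5 was 0.000794 in limma, with a log2 fold change of -2.81. Ptpn6, which encodes the inhibitory phosphatase SHP-1, was at 82, 34 and 41 in untreated and 36, 20 and 9 in treated libraries (-1.32 ± 0.51, unadjusted p 0.0248, adjusted p 0.357), and it was at -0.95 without untreated replicate 1 and -0.83 without amisulpride replicate 3. Of the 12 macrophage markers 11 were tested and 5 had a log2 fold change above 0. Cd14 (-1.74, unadjusted p 0.00223 in limma) and Csf1r (-1.01, unadjusted p 0.0486) were lower past the thresholds, whereas Adgre1 (0.83, unadjusted p 0.0784 in limma) and C1qb (0.75, unadjusted p 0.0573) had higher means. Ptprc was at 38, 12 and 18 in untreated and 23, 5 and 5 in treated libraries (-1.16, unadjusted p 0.104 in limma). The part of these markers in the result was not tested. With the block, Ifi47, an IRG gene, was lower past the thresholds as well, with a log2 fold change of -1.17 (unadjusted p 0.0218).

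**Figure D5:**
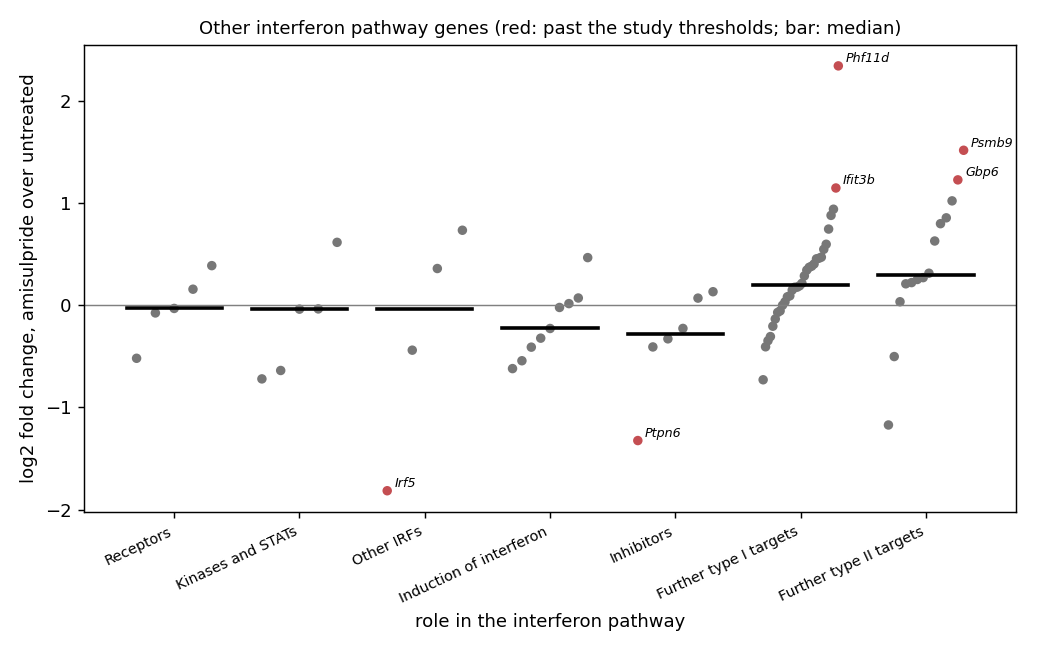
Log2 fold change, amisulpride over untreated, of the 75 other tested pathway genes by role, with red points for the 6 past the study thresholds and bars at the medians. The medians of the type I and type II targets, 0.20 and 0.29, lay above 0, and those of the receptors (-0.03), inhibitors (-0.28) and genes for interferon induction (-0.23) under it.

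The plot of pathway genes by role shows the medians of the receptors and of the kinases and STATs near 0 and the points past the thresholds among targets, IRFs and inhibitors. Of the 5 kinase and STAT genes 1 had a log2 fold change above 0, Jak1 at 0.61 ± 0.32, and of the 6 inhibitor genes 2 did. All 9 genes for the induction of interferon were tested, 3 were above 0, and 0 passed the thresholds.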

How the data were processed

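Expression was measured by 3′ mRNA sequencing in 6 libraries, 3 per group. The authors mapped reads to mm10 with TopHat2 and then Bowtie2, counted them per gene with GenomicRanges and normalised the counts through metaseqr. They tested differences with DESeq (versions not given in the sources used here). The deposited unit is a score, taken here as the reads of each gene scaled by 1 factor per library and rounded. The methods do not state this scaling, which was read from the steps between low values. Another 12 per-library columns in all and the authors' fold changes, p-values and means were not used. Groups were compared with limma 3.58.1 (R 4.3.3) on log2(normalised count + 1) with a mean-variance trend, for genes with at least 10 in at least 3 libraries. Fold changes on this scale understate those of low genes. The two-sided p-values were adjusted over 12614 genes (Benjamini-Hochberg). The fit was tested on simulated data with known changes.

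Depth was estimated from the step between low values, taking 1 read to be worth a fixed number of normalised counts. It was 2.52 to 4.71 M reads and uncertain for untreated replicate 1. Libraries of the same replicate number deviated together (r over genes 0.201 to 0.240, against -0.149 to -0.0777 for different numbers), so the numbers were taken to pair the libraries. For each library the positive value was nearly balanced by the negative ones, so the negative values are not separate evidence of pairing. This pairing comes from the data and not from a label. The study's methods call the replicates biological, and the labels do not say that they were separate cultures or animals, so the p-values may measure a spread that is partly technical.

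All members are described by role. Full statistics were given for members past a threshold, the 8 with the lowest p-values and the 3 with the highest mean, and pathway genes were named when past the thresholds, with the receptors and the ligands. Another pathway gene is not reported here. Further genes named for 1 pattern were chosen after their values were seen. The members and lists were chosen with earlier results of these data known. From the pathway list, Mnda was not found by name. Overlap with other genes was read from the deposited coordinates, and shared transcript ends from 25-base words in the last 300 bases. Alternatives were another pseudocount (5), no filter, a minimum of 20, quantile normalisation, equal library sums, library weights, the replicate block and leaving out each library.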

Additional observations from a re-analysis of the deposited data

How the results depend on the processing

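The direction of the median held under every alternative run, with values of 0.31 (equal library sums) to 0.41 (library weights), and 0.089 to 0.56 when a library was left out. Without the filter, 2 of 36 members were higher (2.73% of all genes) and 1 lower past the thresholds (5.77% of all genes in either direction). In that run 3 had an unadjusted p under 0.05 in limma (8.76% of all genes), and the median of number 3 was 0.087. Quantile normalisation gave 2 higher members (2.86% of all genes) and 2 with an unadjusted p under 0.05 in limma (11.1% of all genes). Its medians were 0.30 in number 2 and 0.25 in number 3. Equal library sums gave 0.18 in number 3. The within-number alternatives were chosen after seeing the data. Library weights gave 3 higher members (3.02% of all genes) and 4 with an unadjusted p under 0.05 in limma (13.8% of all genes). With these weights 4 members were lower in treated SFs. The weights reversed Ifi27 (0.0075), Irf1 (0.013), Ifngr1 (0.0027) and Il10rb (0.075), all near 0. The replicate block gave 1 member with an adjusted p under 0.05 in limma (2.08% of all genes). It gave 3 higher past the thresholds (3.18% of all genes) and 4 with an unadjusted p under 0.05 (14.6% of all genes). These 4 were Ifi44, Ifit3, Usp18 and Irf7, and the block changed no other call on members beyond those given above. Leaving out 1 library gave 1 to 5 higher members (2.5% to 3.93% of all genes) and 0 to 0 lower. It gave 1 to 5 with an unadjusted p under 0.05 in limma (7.35% to 13.2% of all genes). The groups did not overlap for 2 to 7 members (23.6% to 29.7% of all genes), and 3 to 10 were lower in treated SFs. Pathway genes past the thresholds were 3 to 9 (4.57% to 8.11% of all genes). Log2 fold changes then ran from -0.36 to 0.047 for Ifi27, -0.34 to 0.16 for Irf1, -0.24 to 0.089 for Ifngr1 and -0.28 to 0.22 for Il10rb. The causes were not tested. Of 293 alternative values of single genes, 257 kept direction and call, 16 lost the call, 10 gained it and 10 changed sign. At 2.52 to 4.71 M reads, members with a few reads per library could not be tested.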
